A study of Homo sapiens with 6 samples.

Results

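The ETS transcription factors examined were 9 genes, ETV1, ETV4, ETV5, ETV6, ETS1, ETS2, ELF3, EHF and ELK3, taken by symbol from tables of 21463 genes in messenger RNA of human EGFR-mutant non-small cell lung cancer lines. The ETS family has 28 genes in all in these tables, so 19 others served as comparison. The resistant sublines were HCC827-GR and PC9-GR, both E19Del for EGFR and made resistant to gefitinib, an inhibitor that binds the EGFR kinase reversibly, and H1975-OR, of EGFR status L858R/T790M and made resistant to osimertinib, which binds the receptor covalently, T790M included. Their untreated parental lines, HCC827, PC9 and H1975, carry the same EGFR mutations and were grown in the same serum-supplemented medium. Each of the 6 states was 1 library, selection lasted 90 days with rising drug, and IC50 values, the drug level that lowers viability by 50%, were 4.288 to 12.485 µM for resistant cells and 0.016 to 0.07 µM for parental cells. Whether a subline was a clone or a pool, and whether drug was present when RNA was taken, is not given in the sources used here.

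ETS factors share a DNA-binding domain that recognises a GGAA core, and many of them sit at the end of growth factor signalling. ETV1, ETV4 and ETV5 form the PEA3 group, whose genes are repressed by the HMG-box protein CIC and released when ERK signalling inactivates CIC. ETS1, ETS2 and the ternary complex factor ELK3 are phosphorylated by ERK, ELF3 and EHF are factors of epithelial tissues, and ETV6 is a repressor.

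The libraries held 24463011 to 29366085 exon reads in resistant cells and 21222102 to 28140012 in parental cells. Levels of genes are given as TPM, which corrects for exon length, and changes as the log2 ratio of CPM (counts per total reads after TMM scaling) with 1 CPM added to both libraries. Where a gene had 0 reads, up to 3 are allowed for, which is 0.0982 to 0.145 CPM. Within a line there is 1 library per state, hence no replicate and no p-value, and intervals on single ratios cover counting error only. The summed TPM of 20 epithelial markers was 2117 to 10167 in resistant cells and 3858 to 16872 in parental cells. Lung lineage markers did not mark every line: NKX2-1 was at 0.199 TPM in resistant and 0.0778 TPM in parental PC9 cells, and the club cell gene SCGB1A1 had 0 reads in all 6 libraries. Of markers of other cells, the endothelial EMCN had 0 reads throughout, the leukocyte PTPRC reached at most 0.135 TPM and the fibroblast DCN at most 0.0235 TPM. In sums, 8 fibroblast markers were at 7.04 to 106.5 TPM in resistant and 5.56 to 47.4 TPM in parental cells, 8 endothelial markers at 0.707 to 12.9 and 0.995 to 24.6 TPM, and 8 leukocyte markers at 195.8 to 328.1 and 106.3 to 227.3 TPM. The leukocyte sum was led by CD68 and LAPTM5, at 189.8 and 180.8 TPM in their highest resistant library, and the part of these markers in the ETS values was not tested. The genes named by rule from these lists were COL1A1, with log2 ratios (HCC827, then PC9, then H1975) of -0.03, 0.25 and 1.07, CD68, with 1.11, 1.26 and -0.07, and the lung factor FOXA1, with -0.73, -1.19 and -0.29.

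The promoters shown are those of ETV1, which like ETV5 was lower in every resistant library and is the PEA3 gene with an entry, and of the epithelial factors ELF3 and EHF, which were lower in most of them. They are RefSeq windows of GRCh38.p14 (the files use hg38), from 250 bases before to 50 bases after a start site, and 6 of the 9 genes were matched; ETV4, ETV5 and ETS1 were not. Capitals mark 3 kinds of motif, searched on both strands: the CIC octamer (TGAATGAA, TGAATGGA, TCAATGAA or TCAATGGA), the E-box CACCTG that ZEB and SNAI repressors bind, and CCGGAA, an ETS core with its flank.
ETV1, chr7:13991376-13991675, minus strand: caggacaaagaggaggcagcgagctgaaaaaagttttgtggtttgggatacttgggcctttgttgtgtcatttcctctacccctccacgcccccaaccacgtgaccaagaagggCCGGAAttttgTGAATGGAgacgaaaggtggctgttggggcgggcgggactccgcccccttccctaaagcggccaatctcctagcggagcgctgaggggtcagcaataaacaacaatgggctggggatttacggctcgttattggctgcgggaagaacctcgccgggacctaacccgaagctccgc
ELF3, chr1:202010337-202010636, plus strand: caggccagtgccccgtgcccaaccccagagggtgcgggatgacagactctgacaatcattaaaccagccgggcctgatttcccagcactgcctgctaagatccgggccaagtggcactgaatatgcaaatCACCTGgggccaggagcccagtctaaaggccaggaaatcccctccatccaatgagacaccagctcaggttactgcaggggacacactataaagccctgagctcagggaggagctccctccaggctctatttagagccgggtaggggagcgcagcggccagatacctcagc
EHF, chr11:34624007-34624306, plus strand: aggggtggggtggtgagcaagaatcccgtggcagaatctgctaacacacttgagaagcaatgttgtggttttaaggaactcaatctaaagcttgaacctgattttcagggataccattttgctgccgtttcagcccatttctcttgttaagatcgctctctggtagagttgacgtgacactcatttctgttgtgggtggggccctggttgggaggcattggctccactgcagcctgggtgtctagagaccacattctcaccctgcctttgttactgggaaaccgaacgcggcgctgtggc
EHF, chr11:34632316-34632615, plus strand: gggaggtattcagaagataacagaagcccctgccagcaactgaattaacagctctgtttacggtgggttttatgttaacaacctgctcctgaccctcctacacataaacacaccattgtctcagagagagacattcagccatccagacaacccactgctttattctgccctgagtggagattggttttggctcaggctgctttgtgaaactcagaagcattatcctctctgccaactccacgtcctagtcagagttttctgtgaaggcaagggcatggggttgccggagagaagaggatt
ETV1 has 6 windows, of which the one with the most matches is shown; it holds TGAATGGA 125 bases and CCGGAA 136 bases before the start, with no overlap between them. A CIC octamer is in 1 of the 6 and CCGGAA in 3, of which the windows from 13990653 and 13990657 overlap and share the same match. A CIC octamer occurs in some window of 4.62% of all 27305 genes and CCGGAA in that of 20.1%, and ETV1, with 6 windows, has more chances of a match than a gene with 1. The ELF3 window holds CACCTG 120 bases before the start, which 20.6% of all 35116 windows do, and none of these letters were in either EHF window. A match is a description of the sequence and not a measured site.

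The median log2 ratio of the 9 factors was -1.02 in HCC827, -0.44 in PC9 and -0.12 in H1975. Over all tested genes the medians were -0.02, 0.00 and 0.02. In H1975 ETS1 and ETV6 were above their parental level, and ETV4 and ELF3 were nearly level. Fewer factors reached 2-fold in PC9 and H1975 than in HCC827. EHF, ETV4, ELF3 and ETV5 were at least 2-fold lower in resistant HCC827 cells, ELF3 was so in resistant PC9 cells and ETV1 in resistant H1975 cells. ETS1 was the 1 member at least 2-fold higher, and only in resistant HCC827 cells. In bulk RNA, fewer cells that express a gene and less RNA of it per cell cannot be told apart. Of the 8 members with at least 10 CPM in a HCC827 library, 4 were 2-fold lower and 1 higher, where 7.66% and 10.5% of all 10290 genes at that level were. In PC9 1 of 8 members was 2-fold lower and 0 higher, beside 1.72% and 2.41% of genes, and in H1975 1 of 9 was lower and 0 higher, beside 3.22% and 1.75%. The H1975 count was 2 lower with library-size scaling, since EHF lies close to the threshold there.

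**Figure D1:**
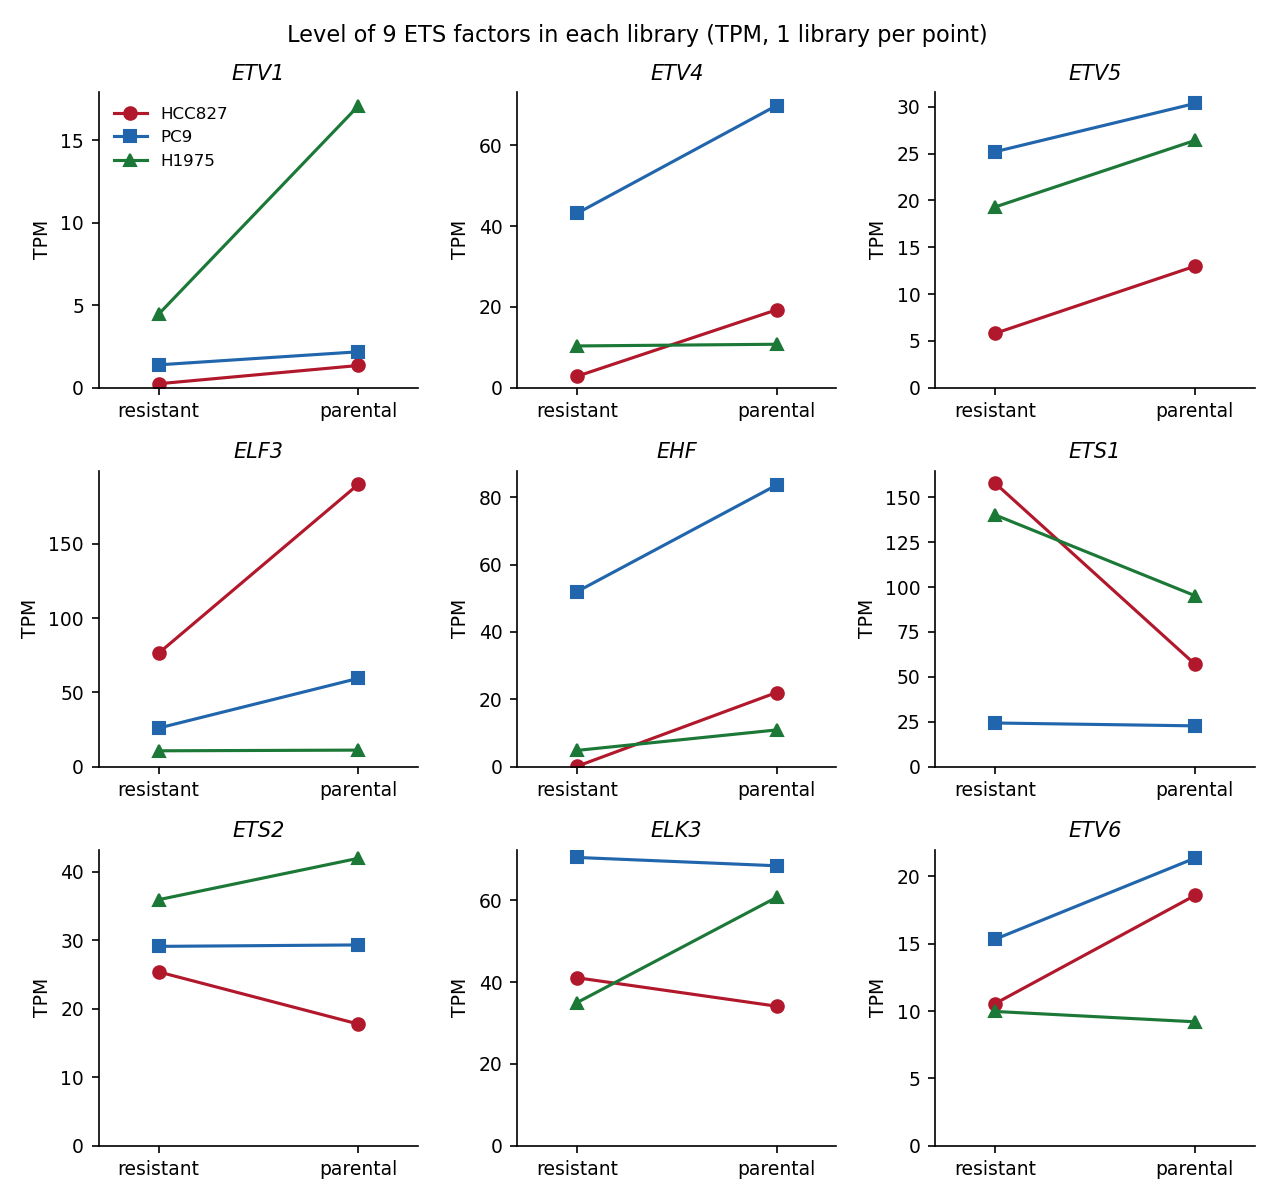
TPM (vertical axis, from 0) of each of the 9 factors in the resistant and the parental library of HCC827 (red circles), PC9 (blue squares) and H1975 (green triangles), with a line joining the 2 libraries of a cell line. ETV1, ETV4, ETV5, ELF3 and EHF lines run downward from parental to resistant in all 3 cell lines, those of ETV4 and ELF3 only slightly in H1975. ETS1 was at 157.9 TPM in resistant and 57.1 TPM in parental HCC827 cells.

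Of the PEA3 group, ETV1 and ETV5 were lower in all 3 resistant libraries, and ETV4 in both gefitinib-selected ones. Their summed level was 8.84, 69.7 and 34.1 TPM in resistant HCC827, PC9 and H1975 cells, against 33.6, 102.4 and 54.2 TPM in the parental cells. The log2 ratios of these sums were -1.93, -0.55 and -0.67. The group thus made up 1.76% of the family's TPM in resistant HCC827 cells and 6.12% in parental ones.

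ETV1 (ENSG00000006468, hg38 chromosome 7, 13891228 to 13991425) was at 0.237, 1.38 and 4.45 TPM in resistant HCC827, PC9 and H1975 cells, against 1.34, 2.18 and 17.1 TPM in parental cells. H1975 held the most ETV1 in both states, and the groups overlapped because of the difference between lines. The log2 ratios were -1.55, -0.53 and -1.75. In HCC827 this rested on 21 reads in the resistant and 116 in the parental library, a read ratio of 0.186 (95% counting interval 0.111 to 0.298). ETV1 stayed below 10 CPM in HCC827 and PC9, so it could be counted at 2-fold only in H1975. ETV4 (ENSG00000175832, hg38 chromosome 17, 43527844 to 43579620), which takes part in branching growth of epithelia, was at 2.81, 43.1 and 10.3 TPM in resistant HCC827, PC9 and H1975 cells, against 19.3, 69.9 and 10.8 TPM in parental cells. Its log2 ratios were -2.41, -0.66 and 0.04, and the H1975 value was -0.03 with library-size scaling, so no direction is given there. Only 55% of ETV4 reads mapped uniquely, and the cause was not tested. In the GENCODE annotation its exons overlap those of DHX8 on the other strand, and 99.9% of DHX8 reads were unique. Whether counting used strand is not given in the sources used here, so its absolute level is uncertain; ELF3, ETS2 and ELK3 also overlap non-coding genes that the tables do not list. ETV5 (ENSG00000244405, hg38 chromosome 3, 186046308 to 186110318), a regulator of lung branching and alveolar type 2 cells in the mouse, was at 5.80, 25.2 and 19.3 TPM in resistant HCC827, PC9 and H1975 cells, against 13.0, 30.4 and 26.4 TPM in parental cells. Each resistant library was below its own parental one, with log2 ratios of -1.02, -0.24 and -0.34, the HCC827 value lying just past the 2-fold mark.

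Of the epithelial factors, ELF3 was the most abundant member in parental HCC827 cells and EHF in parental PC9 cells. Together they were at 76.4, 77.9 and 15.5 TPM in resistant HCC827, PC9 and H1975 cells, against 212.0, 143.0 and 22.04 TPM in parental cells, log2 ratios of -1.47, -0.88 and -0.51. They made up 15.2% of the family's TPM in resistant HCC827 cells and 38.6% in parental ones.

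ELF3 (ENSG00000163435, hg38 chromosome 1, 202007945 to 202017188), a factor of epithelial differentiation, was at 76.4, 26.0 and 10.7 TPM in resistant HCC827, PC9 and H1975 cells, against 190.0, 59.4 and 11.1 TPM in parental cells. Both gefitinib-selected sublines were below their parental line, with log2 ratios of -1.23 and -1.16. In H1975 the value was 0.04, and -0.03 with library-size scaling. ELF3 was the second most abundant family member in resistant HCC827 cells, after ETS1. EHF (ENSG00000135373, hg38 chromosome 11, 34621093 to 34661057), its close relative, was at 0.0879, 51.9 and 4.82 TPM in resistant HCC827, PC9 and H1975 cells, against 22.01, 83.6 and 10.9 TPM in parental cells. The resistant HCC827 library held 4 EHF reads and the parental one 974, a read ratio of 0.00423 (95% counting interval 0.00115 to 0.0109). In PC9 and H1975 the log2 ratios were -0.66 and -0.97. EHF lies 107.3 kb from ELF5, another epithelial member, with 0 genes of the tables between them. ELF5 was detected only in PC9, at 3.57 TPM in resistant and 10.3 TPM in parental cells (152 and 372 reads), a log2 ratio of -1.37. The more distant SPDEF, an epithelial factor of secretory cells, had 6, 17 and 2 reads in resistant HCC827, PC9 and H1975 cells, against 124, 98 and 3 reads in parental cells.

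Epithelial markers lay on the same side as these factors. Among 20 such markers, all measured, 14 lay lower in every resistant library and 0 higher in every one, where 13.5% and 14.3% of all 13541 tested genes were. Their median log2 ratio was -3.79 in HCC827, -0.11 in PC9 and -0.75 in H1975, beside medians of -0.02, 0.00 and 0.02 over all tested genes. The splicing factor ESRP1 had -7.76, -0.23 and -2.77, the protease ST14 -7.15, -0.61 and -1.85 and the adhesion molecule EPCAM -5.23, -0.03 and -4.24. PC9 differs in the size of the changes: ELF3 was at -1.16 there while the 3 markers stayed between -0.61 and -0.03, and H1975 had ELF3 at 0.04 beside EPCAM at -4.24. Of mesenchymal markers 14 were measured, and 6 of them lay higher and 1 lower in each resistant library. The median log2 ratio of the mesenchymal markers was 3.71 in HCC827, 0.82 in PC9 and 0.18 in H1975. The genes named from both lists were chosen for the largest absolute mean log2 ratio, so they do not stand for the lists. Log2 ratios were 5.64, 2.69 and 0.61 for the collagen COL5A1, 4.77, 0.31 and 2.47 for the repressor ZEB2 and 4.45, 1.67 and 0.22 for the filament VIM. The 1 lower marker was SNAI1, with -1.17, -0.44 and -0.31, and TNC had -2.08, 0.19 and 0.32. In DESeq2 2 epithelial markers passed as lower and 1 mesenchymal marker as higher. None of them passed in edgeR (smallest adjusted p = 0.903, Benjamini-Hochberg over all genes), and their part in the ETS values was not tested.

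**Figure D2:**
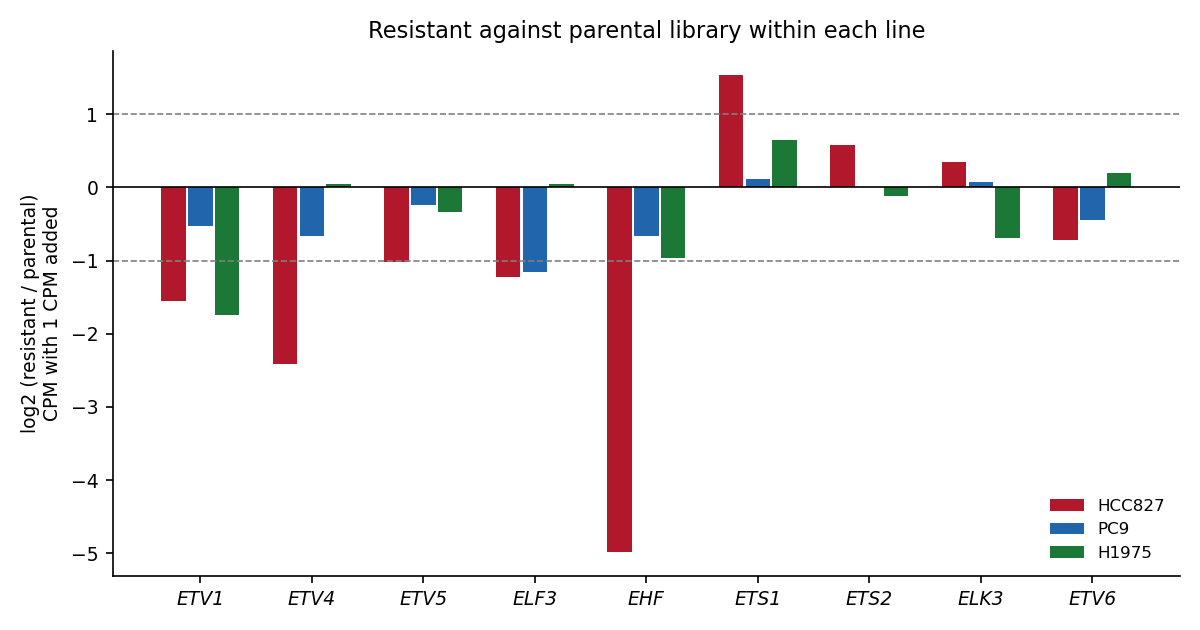
Bars give the log2 ratio of resistant to parental CPM (1 CPM added to both) of each of the 9 factors in HCC827 (red), PC9 (blue) and H1975 (green), and dashed lines mark 2-fold. EHF in HCC827 reaches -4.98, ETS1 is above 0 in all 3 lines, and ETS2, ELK3 and ETV6 stay within 2-fold.

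ETS1 was the member that was higher in all 3 resistant libraries, and with it the leading ETS factor of HCC827 was another one in resistant than in parental cells. ETS1 (ENSG00000134954, hg38 chromosome 11, 128458761 to 128587558), a factor of invasive growth and of blood vessel and lymphoid cells, was at 157.9, 24.3 and 140.2 TPM in resistant HCC827, PC9 and H1975 cells, against 57.1, 22.7 and 95.3 TPM in parental cells. Its log2 ratios were 1.54, 0.12 and 0.65. In resistant HCC827 cells ETS1 took 31.4% of the family's TPM, against 10.4% in parental cells. FLI1, its neighbour 98.98 kb away, had 2, 1 and 2 reads in resistant HCC827, PC9 and H1975 cells and 0, 3 and 0 in parental cells. The paralog ETS2 (ENSG00000157557, hg38 chromosome 21, 38805307 to 38824955) was at 25.4, 29.1 and 35.9 TPM in resistant HCC827, PC9 and H1975 cells, against 17.8, 29.3 and 42.0 TPM in parental cells. It was lowest in both states of HCC827 and highest in both of H1975, and its log2 ratios were 0.58, 0.01 and -0.12.

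ELK3 and ETV6 are known mainly as repressors, ELK3 until ERK phosphorylates it, and both stayed within 2-fold in each line. ELK3 (ENSG00000111145, hg38 chromosome 12, 96194382 to 96269835) was at 41.1, 70.5 and 35.0 TPM in resistant HCC827, PC9 and H1975 cells, against 34.1, 68.5 and 60.7 TPM in parental cells. It was the most abundant ETS gene of resistant PC9 cells, and its log2 ratios were 0.34, 0.07 and -0.69. ETV6 (ENSG00000139083, hg38 chromosome 12, 11649854 to 11895402) was at 10.6, 15.3 and 9.97 TPM in resistant HCC827, PC9 and H1975 cells, against 18.6, 21.4 and 9.20 TPM in parental cells. The gefitinib-selected sublines were below their parental lines, and the log2 ratios were -0.72, -0.44 and 0.20.

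Seen as a whole, the family's summed level differed less than its makeup. All 28 genes together were at 502.1, 497.8 and 465.9 TPM in resistant HCC827, PC9 and H1975 cells, against 548.9, 638.3 and 470.6 TPM in parental cells. The leading gene was ETS1 in resistant and ELF3 in parental HCC827 cells, ELK3 in resistant and EHF in parental PC9 cells, and ETS1 in both states of H1975. In parental PC9 cells the next genes after EHF (83.6 TPM) were ETV4 (69.9), ELK3 (68.5), ELF4 (67.4) and ERF (67.3 TPM), an order with small steps, in which only 15.4% of ERF reads mapped uniquely. In resistant PC9 cells ELK3 (70.5 TPM) was followed by ELF4 (60.1), ERF (56.2) and EHF (51.9 TPM). With 1 library per state the spread behind these orders is unknown.

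**Figure D3:**
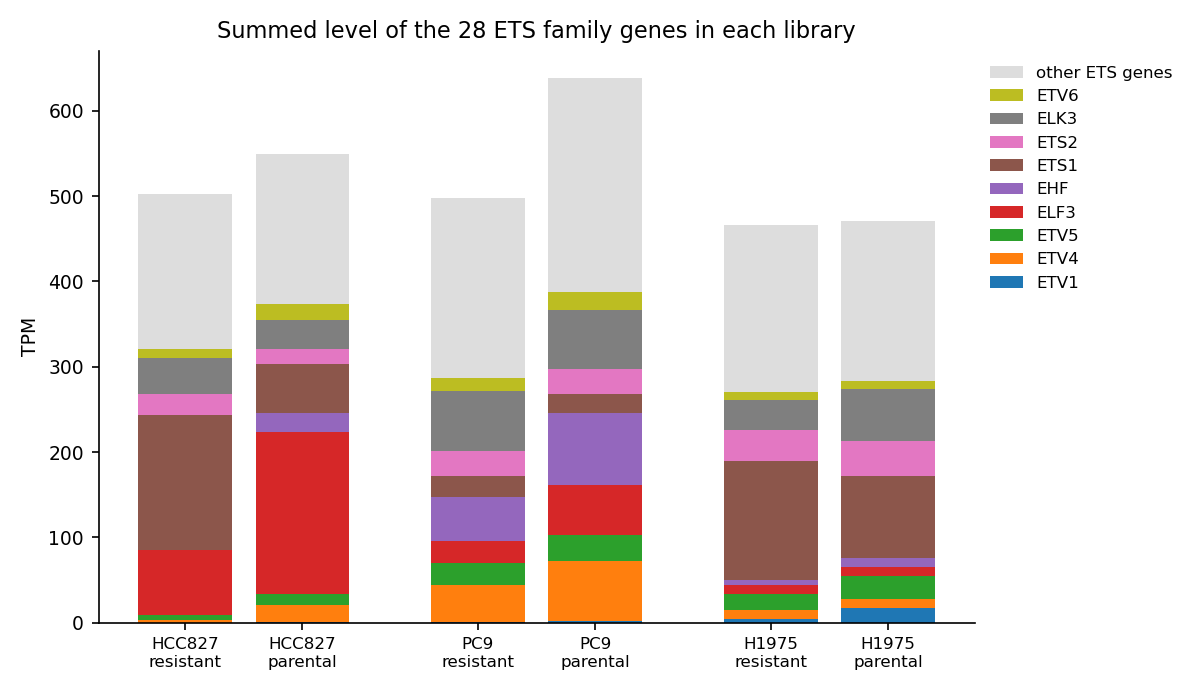
Stacked bars give the TPM of the 9 factors (colours) and of the other 19 ETS family genes (light grey) in each library, the resistant library standing left of the parental one of its line. The ELF3 segment is at 76.4 TPM in resistant and 190.0 TPM in parental HCC827 cells, and the ETS1 segment at 157.9 and 57.1 TPM.

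The comparison over the 3 lines asked which factors differed on average between resistant and parental cells, with the cell line as a block. ETV1 had the largest difference in relation to its error, followed by ELF3 and ETS1, and none of the 9 passed in edgeR. All 9 were kept by the filter on low counts. By edgeR's quasi-likelihood test with Benjamini-Hochberg adjustment, the log2 fold change of ETV1 over 3 lines was -1.61 ± 0.45 (SE; unadjusted p = 0.0164, adjusted p = 0.903; lower in 3 of 3 lines). It was -2.25 ± 1.44 for EHF, -1.07 ± 0.59 for ETV4, -0.80 ± 0.32 for ELF3, -0.56 ± 0.25 for ETV5 and 0.77 ± 0.32 for ETS1, each with an edgeR adjusted p of 0.903. For ETV6 it was -0.33 ± 0.26, for ETS2 0.16 ± 0.21 and for ELK3 -0.09 ± 0.26, with edgeR adjusted p of 0.903, 0.926 and 0.968. The size for EHF was set by HCC827: the fitted value was -0.87 without that line, -4.01 without PC9 and -3.53 without H1975. For ETV4 it was -0.33 without HCC827 and for ETS1 0.39.

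The edgeR test called 0 of all 13541 genes (0%), and 502 had an unadjusted p below 0.05; limma-voom called 0 as well, and 763 were below 0.05 there. DESeq2 called 58 genes (0.428%), none of them in the ETS family; its adjusted p was 0.152 for ETV1, 0.576 for ELF3 and 0.626 for ETS1. By direction alone, 3 members (ETV1, ETV5 and EHF) were lower and 1 (ETS1) higher in all 3 resistant libraries, beside 13.5% and 14.3% of all tested genes. Without H1975, 6 members were lower and 3 higher in both remaining lines. The share of all genes was not taken for this count, so it does not set the members apart from other genes. The 3 higher ones changed little in PC9, with log2 ratios of 0.12 for ETS1, 0.07 for ELK3 and 0.01 for ETS2. The 2 residual degrees of freedom limit this test: the 95% interval was -2.60 to 0.47 for ETV4 and -0.06 to 1.61 for ETS1, and that of ETV1 was -2.78 to -0.45.

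**Figure D4:**
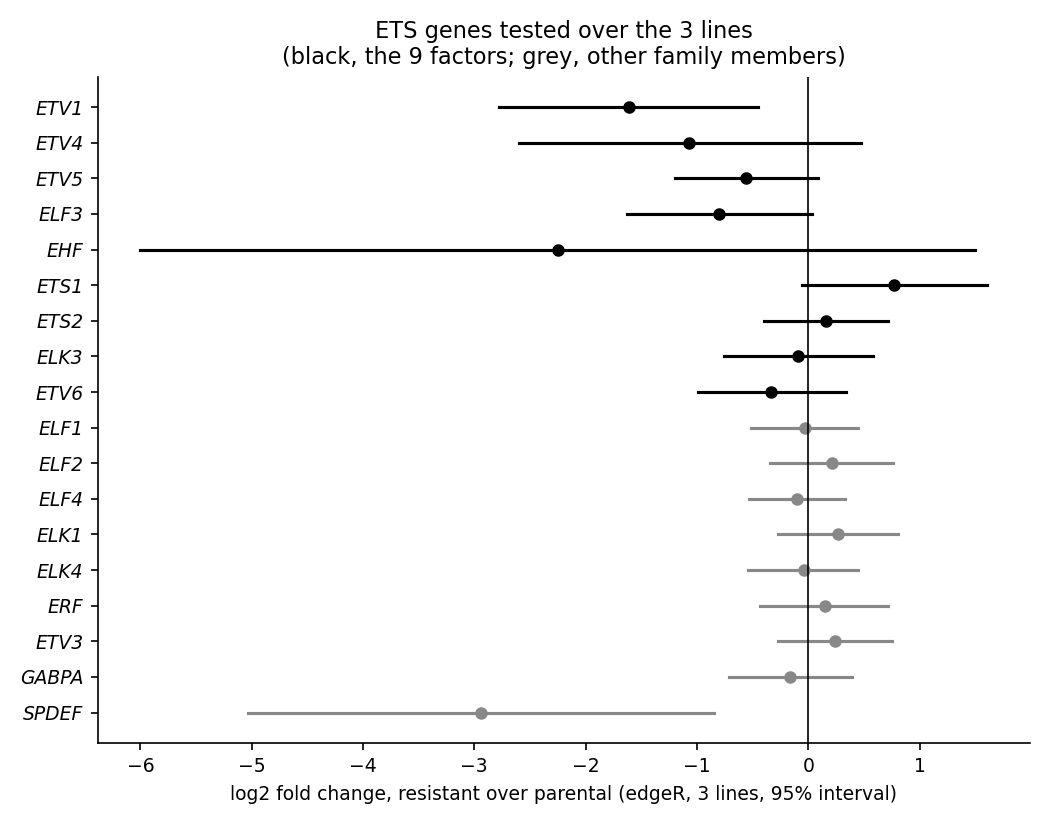
Points give the edgeR log2 fold change of resistant over parental libraries over the 3 lines and bars its 95% interval, for the 9 factors (black) and the other 9 ETS genes that passed the filter (grey). ETV1 and SPDEF have intervals below 0 before adjustment, and 7 of the other 8 grey points lie between -0.16 and 0.24.

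Of the 19 other family genes 9 passed the filter on low counts, and 8 of these, ELF1, ELF2, ELF4, ELK1, ELK4, ERF, ETV3 and GABPA, had fitted values between -0.16 and 0.27. SPDEF was the exception, at -2.94 ± 0.80 (edgeR, SE, n = 3 lines; unadjusted p = 0.0157, adjusted p = 0.903), at levels of at most 0.931 TPM in resistant and 6.31 TPM in parental cells. The 18 tested family genes had a median log2 ratio of 0.05 in HCC827, of -0.23 in PC9 and of 0.04 in H1975. Of the 10 that were not tested, ERG and FEV had 0 reads in every library. ETV7, a relative of ETV6, had 60 reads in resistant and 2 in parental H1975 cells, a read ratio of 23.2 (95% counting interval 6.15 to 196.1). It was named for its values after they were seen.

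The drugs were then set against each other. Of the 9 members 5 lay on one side of 0 in both gefitinib-selected lines and on the other in H1975, as did 26.8% of all 13541 tested genes. ELF3 was lower in both gefitinib-selected sublines and nearly level in H1975-OR, and its change differed by -1.24 ± 0.42 on the log2 scale (gefitinib minus osimertinib, edgeR, unadjusted p = 0.0368, adjusted p = 1.00). ELK3 differed by 0.90 ± 0.42 (unadjusted p = 0.0931 in edgeR) and ETV4 by -1.71 ± 1.00 (unadjusted p = 0.158 in edgeR). No ETS gene passed, and edgeR called 0 of 13541 genes (0%; 434 at an unadjusted p under 0.05), while DESeq2 called 77, none in the family. With 1 residual degree of freedom and 1 osimertinib-selected line, drug, EGFR mutation and line cannot be told apart.

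Reads from introns, which come mostly from RNA not yet spliced, gave a second readout of the same genes. All 7 read ratios of at least 2-fold in exon reads, taken without added CPM, that had 20 or more intron reads in the pair, and intron reads in both libraries, lay on the same side in intron reads. ETS1 had 203 intron reads in resistant and 66 in parental HCC827 cells, a ratio of 3.16 (95% counting interval 2.39 to 4.24) beside 2.92 in exon reads. ELF3 had 202 and 540 in HCC827, a ratio of 0.385 (0.326 to 0.453), and ETV1 had 38 and 102 in H1975, a ratio of 0.288 (0.193 to 0.422). EHF had 0 intron reads in resistant and 86 in parental HCC827 cells, a ratio of 0 (0 to 0.0451). With 0 set to 3 reads it was 27.9-fold lower, a value that leaves out the counting error. In PC9 all intron reads together had a log2 ratio of -0.30, and ETS1, at 0.12 in exon reads, had -0.69 in intron reads there. Over all pairs with enough intron reads, 20 of 25 values lay on the same side in both readouts. Exon and intron reads come from the same libraries, and the share of all genes on the same side was not taken. These counts therefore do not set the factors apart from other genes.

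**Figure D5:**
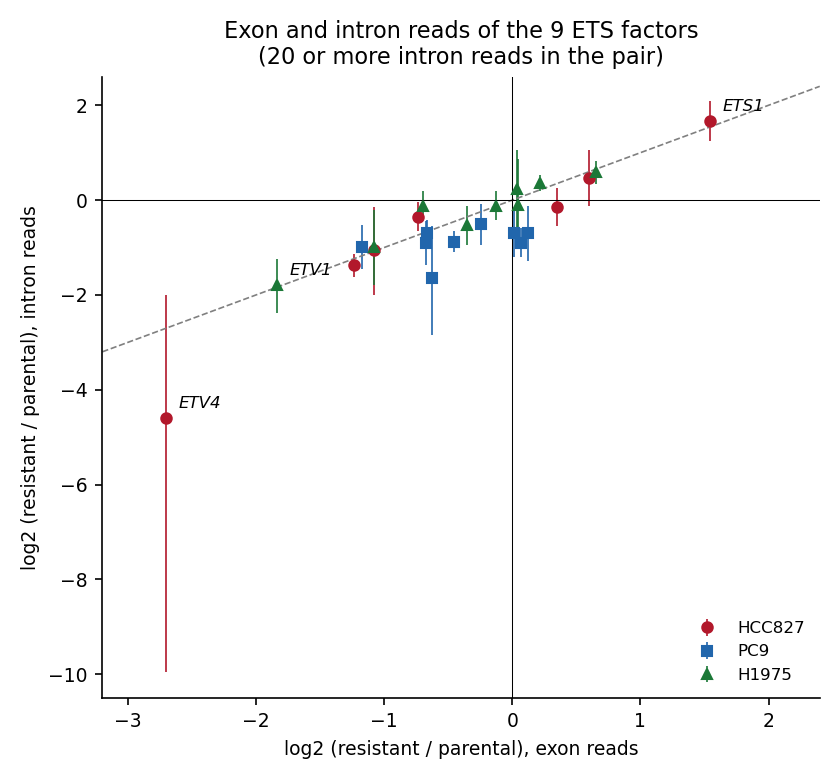
Each point is 1 of the 9 factors in HCC827 (red circles), PC9 (blue squares) or H1975 (green triangles), by its log2 ratio of resistant to parental in exon reads (horizontal) and intron reads (vertical, with 95% counting intervals); the dashed line marks equal ratios and names stand beside points beyond 1.3. ETS1 in HCC827 lies at 1.55 and 1.66, and ETV4 in HCC827, with 1 intron read in resistant and 25 in parental cells, lies lowest.

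Genes that report ERK signalling were set beside the PEA3 group, which is one of its outputs. Of 18 such genes, the ETV genes left out, 9 were lower and 0 higher in all 3 resistant libraries, beside 13.5% and 14.3% of all tested genes, and 0 passed in edgeR (smallest adjusted p = 0.903). In DESeq2 2 of them passed, both lower. The median log2 ratio of the list was -0.41 in HCC827, -0.54 in PC9 and -0.22 in H1975. Genes of the list were counted at 2-fold only with at least 10 CPM in a library of the line. In HCC827 6 were at least 2-fold lower and 2 higher, beside 7.66% and 10.5% of all genes at that level. In PC9 3 were 2-fold lower and 0 higher, beside 1.72% and 2.41%. In H1975 4 were lower and 0 higher, beside 3.22% and 1.75%. The genes named next were chosen for the largest absolute mean log2 ratio, so they do not stand for the list. In the order HCC827, PC9 and H1975, EGR1, an immediate-early factor, stood at log2 ratios of -5.37, -3.27 and -1.52, DUSP6, which dephosphorylates ERK, at -5.14, -1.36 and -0.13, and the feedback inhibitor SPRY4 at -2.85, -0.87 and -1.05. DUSP6 and ETV4 had the same order of lines, HCC827 lowest and H1975 near 0, a likeness picked after the values were seen. EGR1 shared the order but was at -1.52 in H1975, and SPRY4 and ETV5 were least changed in PC9. A link between these genes was not tested. The order for ETV1 depended on the CPM added: H1975 was lowest with 1 CPM (-1.75, against -1.55 in HCC827) and HCC827 with 0.25 CPM (-2.11, against -1.82 in H1975). Of 17 regulators and partners of ETS factors 4 were higher and 1 lower in all 3 lines, beside 14.3% and 13.5% of all tested genes. CBFB, the partner of RUNX1, had -0.09, -0.85 and -0.38, the ELK cofactor SRF 0.71, -0.09 and 0.57 and the Mediator subunit MED23 0.58, 0.41 and -0.06. CIC, picked for its role and not by the rule, had 0.41, 0.17 and 0.05.

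Of 12 genes reported as ETS targets 9 were measured, and 2 of them were lower and 0 higher in all 3 resistant libraries, beside 13.5% and 14.3% of all tested genes. The receptor ERBB2, of which ELF3 and PEA3 factors have been described as regulators, had log2 ratios of -0.54, -0.36 and -0.46. The protease PLAU, for which 47.6% of reads were unique, stood at 1.43, 0.26 and -2.32, and the peptidase ANPEP had 0.80, 1.00 and -0.11. None of the 9 passed in edgeR (smallest adjusted p = 0.903).

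Genes with the pattern most like a member were sought among 11476 others with at least 10 CPM in some library. The measure was Pearson's r of log2 CPM over 6 libraries, which are 3 pairs and not independent. With so many genes and so few libraries, the best matches have a high r by selection. Even for ETS2, which stayed within 2-fold in each line, they reached 0.992, 0.990 and 0.986. A link of these genes to the members was not tested. The lipase LIPH (r = 0.997), the kinase MAPK13 (0.995) and GGCT (0.995) were nearest to EHF. MAPK13 was at 1.38, 131.6 and 12.5 CPM in resistant HCC827, PC9 and H1975 cells, against 66.8, 157.1 and 32.2 CPM in parental cells. CBR4 (0.998), HPCAL1 (0.997) and ITPK1 (0.996) were nearest to ETV5, MAP4K2 (0.996), RFX3 (0.995) and RCL1 (0.993) to ELF3, and ZBTB9 (0.997), FTSJ1 (0.995) and SEMA6C (0.995) to ETS1. For ETV4 they were ETFA (0.996), STK3 (0.993) and PAK1 (0.992), and for ETV1 ERN1 (0.997), KIAA1551 (0.993) and TRRAP (0.989). For ETS2 they were LRFN3 (0.992), JARID2 (0.990) and CLIP1 (0.986), for ELK3 AVPI1 (0.998), IGFBP4 (0.994) and SH3TC2 (0.991), and for ETV6 EXOSC7 (0.998), NR2F6 (0.992) and MFSD9 (0.989).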

How the data were processed

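Messenger RNA of 6 libraries was analysed. The labels' protocols name GENEzol extraction and a TruSeq stranded mRNA kit, and Trimmomatic and Bowtie2 with hg38 are listed in the submitters' processing notes; for the counting tool, its strand setting and the annotation release, nothing is given in the sources used here. Per the file headers, the authors deposited raw read counts per gene, for exons (all reads and unique reads) and for introns. A TPM column was deposited beside them; recomputing it from exon counts and exon lengths gave the same values to within 5e-07. Depth was 21222102 to 29366085 exon reads.

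Counts were tested with edgeR 4.0.16 in R 4.3.3 (quasi-likelihood test, TMM factors, filterByExpr with minimum count 10 and total 15, 13541 genes, two-sided, Benjamini-Hochberg threshold 0.05), with cell line as a block. The labels pair resistant and parental libraries by line, and deviations from the group means correlated at 0.59 to 0.84 within a line and -0.62 to -0.15 across lines. Other fits used DESeq2 1.42.0 and limma 3.58.1. The edgeR test was tried on simulated data. Ratio intervals are 95% Clopper-Pearson intervals. The 9 members and the 10 gene lists were chosen with earlier results of these data known. Named were all members, every other family gene that passed the filter, the 3 genes of each list with the largest absolute mean log2 ratio among those with 10 CPM in 3 libraries, and the 3 genes most like each member. The 3 lines are the replicates. The p-values over the 3 lines rest on the spread between lines, with the dispersion of each gene moderated by that of other genes. For the difference between drugs the residual spread comes from HCC827 against PC9 alone, and none from H1975.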

Additional observations from a re-analysis of the deposited data

Results flagged for a closer look

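Of the 9 factors, 5 lay on one side in both gefitinib-selected lines and on the other in the osimertinib-selected H1975 line, beside 26.8% of all 13541 tested genes, which is why they are listed here; the difference itself was tested in edgeR and passed for none. The log2 change in gefitinib-selected minus that in osimertinib-selected cells was -1.71 for ETV4 (unadjusted p = 0.158 in edgeR), -1.24 for ELF3 (0.0368), -0.81 for ETV6 (0.175), 0.90 for ELK3 (0.0931) and 0.43 for ETS2 (0.429), each with an adjusted p of 1.00 in edgeR. For 3 of the 5 the pattern rests on a ratio near 0 that changes sign with the scaling. The H1975 ratios of ETV4 and ELF3 were 0.04 each, and -0.03 each with library-size scaling. The PC9 ratio of ETS2 was 0.01, and -0.01 in TPM.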

How the results depend on the processing

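Over the 3 lines edgeR called 0 genes in every alternative run, and the DESeq2 fit called 58; for the difference between drugs DESeq2 called 77. With no replicate block edgeR called 0 genes, with 47 at an unadjusted p under 0.05 in place of 502. Of 195 values of ETS family genes under alternatives, 189 kept their side of 0 and none passed (lowest adjusted p = 0.152, ETV1 in DESeq2). The other 6 were near 0. With no replicate block ERF was at -0.0347. SPDEF has no value without PC9, where it did not pass the filter. Leaving out a line gave -0.0611 to 0.318 for ETS2, -0.026 to 0.328 for ERF, -0.102 to 0.0579 for ELF1, -0.32 to 0.22 for ELK3 and -0.156 to 0.105 for ELK4; ETS2 and ELF1 changed side without HCC827, ELK4 without PC9, ERF and ELK3 without H1975.

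Counts of members depended on the threshold. The share of all genes was taken only under the main settings, so the counts given here do not set the members apart from other genes. At 4-fold, 0 were higher and 2 lower in HCC827, 0 lower in PC9 and 0 lower in H1975. At 1.5-fold, 3 were lower in PC9, and 1 was higher and 3 lower in H1975. In H1975 2 were at least 2-fold lower with library size alone, with TPM and with 0.25 CPM added. Members lower in all 3 resistant libraries were 5 with library size alone and 5 with TPM, in place of 3. Leaving out a line gave 1 to 3 members higher and 3 to 6 lower, with no share of all genes taken for these counts. With uniquely mapping reads the summed PEA3 ratio in HCC827 was -1.68 in place of -1.93. Of 162 alternative values of members within lines, 5 changed sign, all near 0. Levels near the floor of 3 reads, as of EHF in resistant HCC827 cells, are limited by depth, and the cause of these shifts was not tested.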
